A study of Sus scrofa with 12 samples.

Results

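The genes of heme synthesis and heme breakdown were followed in the longissimus dorsi, the loin muscle, of 12 castrated male Iberian pigs by RNA-seq. The members were 9 genes chosen by symbol for their place in the pathway, ALAS1, ALAD, UROS, UROD, CPOX, PPOX, FECH, HMOX1 and HMOX2, and each of the 9 had a row among the 25880 genes of the count tables. The High MB group held 6 pigs with high breeding values for myoglobin content and the Low MB group 6 pigs with low ones, from a closed commercial population with full siblings avoided, and every pig was fattened free-range on acorns and grass. Measured myoglobin averaged 2.48 ± 0.0657 mg per g of muscle in the High MB pigs (SD, n = 6), whereas the Low MB pigs averaged 1.39 ± 0.147 mg per g (SD, n = 6). A single library was made per pig.

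Heme is the iron-holding ring that gives myoglobin its red color and its oxygen binding, and muscle also needs it for the cytochromes of the respiratory chain. Synthesis starts in the mitochondrion with 5-aminolevulinate synthase (ALAS1 in most tissues, ALAS2 in red cell precursors), passes through the cytosol, where ALAD, UROS and UROD act, and ends in the mitochondrion with CPOX, PPOX and ferrochelatase (FECH), which inserts the iron. Heme oxygenases open the ring and release iron, carbon monoxide and biliverdin. HMOX1 is the form induced by heme and oxidative stress and is high in macrophages that clear red cells, whereas HMOX2 is the constitutive form.

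The 250 bases before the RefSeq gene starts of Sscrofa11.1 were searched on both strands for a few motifs, and the windows of ALAS1 and HMOX1 are printed because these are the regulated first step of synthesis and the inducible step of breakdown. In capitals are the matches to the GC box (GGGCGG), to the 10-base palindrome bound by the factor NRF1, and to the E-box (CACGTG). The letters of the motifs did not overlap each other in these windows.
ALAS1, chr13:34333013-34333262, plus strand: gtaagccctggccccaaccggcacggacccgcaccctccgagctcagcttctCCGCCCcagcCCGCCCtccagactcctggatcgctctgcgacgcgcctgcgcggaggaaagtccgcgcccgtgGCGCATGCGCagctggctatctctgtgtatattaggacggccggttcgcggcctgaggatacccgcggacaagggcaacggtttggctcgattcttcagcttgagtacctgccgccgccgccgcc
HMOX1, bases 1954578 to 1954827 of an unplaced scaffold, plus strand: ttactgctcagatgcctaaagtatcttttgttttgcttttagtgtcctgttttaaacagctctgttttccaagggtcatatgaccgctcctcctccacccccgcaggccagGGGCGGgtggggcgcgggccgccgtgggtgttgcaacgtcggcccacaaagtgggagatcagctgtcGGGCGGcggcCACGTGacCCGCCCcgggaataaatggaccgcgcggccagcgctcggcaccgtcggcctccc

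The NRF1 palindrome was found before 1 of the 9 genes, ALAS1, where it began 125 bases before the gene start, and before 0.736% of the 20664 protein-coding genes searched in windows of the same length. An E-box was found before HMOX1 alone among the members, against 6.16% of all genes. GC boxes stood before 8 of the 9 members, PPOX being the exception, and before 44.4% of all genes. The core of the antioxidant response element (TGACNNNGC), which NRF2 binds in many inducible genes, was found in the window of UROS and not in that of HMOX1, against 9.84% of all genes. No TATAAA was found before any member, against 10.4% of all genes. A match in these windows is a description of the letters and no evidence of binding. Bases farther from the gene start were not searched, so a missing match is no evidence that a gene lacks the element.

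ALAS1 lies on chromosome 13 from 34333263 to 34347435, and RefSeq lists it on this assembly as a transcribed pseudogene. HMOX1, from 1954828 to 1963836 of its scaffold, has not been placed on a chromosome. Genes on the opposite strand overlap PPOX (B4GALT3) and HMOX2 (CDIP1). Reads that fall on both genes of such a pair cannot be assigned if strand was not used in counting. If strand was used on libraries that do not keep it, some reads of one gene could be credited to the other. Which of these applies is not given in the sources used here. The heme oxygenases are paralogues, and the longest run of identical bases between their RefSeq transcripts was 35 bases within the coding sequence of both, shown because it bounds how far a read could fit either gene.
HMOX1 and HMOX2 shared run: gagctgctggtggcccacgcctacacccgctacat
Reads were 150 bases long, so a read inside this run would also cover bases that differ. Between ALAS1 and ALAS2 the longest run was 19 bases.

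Each library held from 38914271 to 91318334 counts in genes. The libraries formed 5 deep ones (2 High MB, 3 Low MB) with at least 59227608 counts and 7 standard ones with at most 40001432. High MB pig 2 stood apart from the other pigs. It had the highest level of the 12 pigs for 20.1% of the 13373 genes tested and the lowest for 17% of them, and its summed level of 7 muscle fibre markers (ACTA1, CKM, TNNT3, TNNC2, TNNI1, DES and MYOZ1) was 45653 CPM (counts scaled to library size by the TMM method), against 77770 to 129795 CPM in the other 11 pigs. The markers of the labelled tissue were thus abundant in every library. Fits of the members were repeated without this pig. In whole muscle, fewer cells of a type and less RNA per cell cannot be told apart.

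No difference in any of the 9 heme genes was detected between pigs of high and low breeding value, while their myoglobin contents did not overlap. The log2 fold change, positive where the High MB group was higher, lay between -0.29 (FECH) and 0.18 (PPOX) for the 8 genes other than HMOX1. For HMOX1 it was 0.69 with a standard error of 0.46, and it was -0.12 without High MB pig 2. It was above 0 for 6 of the 9, against 46.8% of all genes tested, and the median was 0.08 for the members and -0.02 for all genes. With edgeR's quasi-likelihood test the adjusted p-values of the members were between 0.649 and 0.975, and 0 of the 9 were called, a call being an adjusted p-value under 0.10 with a log2 fold change beyond 0.58 in either direction, against 0% of the 13373 genes tested. Nor did any member reach an unadjusted p-value under 0.05 in edgeR, which 8.46% of all genes did (5.33% upwards and 3.13% downwards in High MB pigs). DESeq2 with its defaults called 0 of the 9, with adjusted p-values between 0.685 and 0.986, against 0.201% of the 14417 genes to which it gave one. The High MB and Low MB levels overlapped for 9 of the 9 members, whereas they did not overlap for 0.426% of all genes tested.

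The intervals show how large a difference could have been missed. For the 8 genes other than HMOX1, the 95% intervals of the ratio of High MB to Low MB reached no lower than 0.633 (FECH) and no higher than 1.39 (UROS and PPOX). That of HMOX1 was wide, from 0.816 to 3.18.

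**Figure D1:**
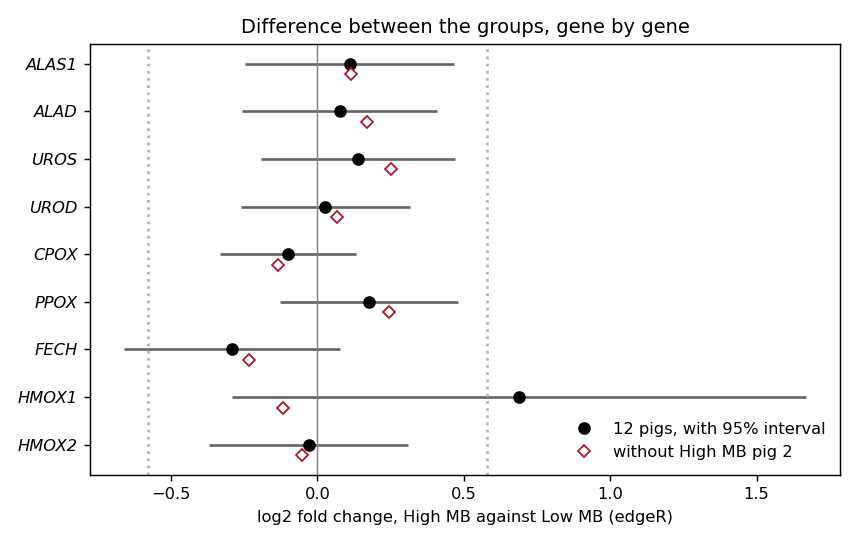
Log2 fold change of each heme gene, High MB against Low MB (horizontal axis), with black points for the fit on 12 pigs, grey lines for its 95% interval and open diamonds for the fit without High MB pig 2. Dotted lines mark 0.58 in both directions. Every interval crosses 0, and HMOX1 moves from 0.69 to -0.12 when that pig is left out.

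ALAS1 (ENSSSCG00000011437), the rate-limiting step of synthesis, was counted 3228 to 6221 times per pig. Its level ran from 66.9 to 107 CPM with a median of 93.9 in the High MB pigs, and from 52.0 to 113 CPM with a median of 84.4 in the Low MB pigs. The highest and the lowest of the 12 pigs both belonged to the Low MB group, so the High MB range lay inside the Low MB range. The log2 fold change of ALAS1 was 0.11 with a standard error of 0.17 (p = 0.489 by exact permutation of the group labels, two-sided, a test that with these group sizes cannot go below 0.00216). It was 0.01 without Low MB pig 6, the lowest, and 0.23 without Low MB pig 2, the highest. Among deep libraries it was 0.12, among standard ones 0.02, and with the depth class as covariate 0.04. With both groups together, ALAS1 did not overlap between depth classes, at 52.0 to 81.7 CPM in the deep libraries and 87.1 to 113 CPM in the standard ones. Depth class and other differences between these pigs cannot be told apart here.

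ALAD (ENSSSCG00000032787), which makes porphobilinogen and is sensitive to lead, ran from 8.74 to 16.7 CPM (median 11.1) in the High MB group and from 9.11 to 13.8 CPM (median 11.6) in the Low MB group. High MB pig 3 was the only pig above the Low MB range. Its log2 fold change of 0.08 became -0.05 when High MB pig 3 was left out, and 0.17 without High MB pig 2. UROS (ENSSSCG00000010742), which closes the porphyrin ring, ran from 35.5 to 65.6 CPM (median 53.1) in the High MB group and from 38.0 to 60.3 CPM (median 43.9) in the Low MB group. Here 5 of the 6 High MB pigs lay above the Low MB median, and High MB pig 2 was the lowest of all 12. The log2 fold change of UROS was 0.14. Among deep libraries alone it was -0.05, among standard ones 0.37, and without High MB pig 2 it was 0.25 (unadjusted p = 0.0800 from edgeR).

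UROD (ENSSSCG00000003922) trims the side chains of the ring and had levels from 15.3 to 23.4 CPM (median 19.5) in the High MB pigs and from 16.0 to 25.2 CPM (median 18.8) in the Low MB pigs. Its log2 fold change was 0.03, the nearest to 0 of the synthesis genes, and 0.07 without High MB pig 2. CPOX (ENSSSCG00000011978), coproporphyrinogen oxidase, ran from 25.5 to 33.4 CPM (median 27.5) in the High MB group and from 26.8 to 37.1 CPM (median 28.2) in the Low MB group. It was the steadiest member, with a coefficient of variation of 12.4% over the 12 pigs and a highest level 1.45 times the lowest. PPOX (ENSSSCG00000006361), the next oxidase, ran from 14.0 to 20 CPM (median 15.7) in the High MB group and from 10.6 to 18.5 CPM (median 14.7) in the Low MB group. It had 5 of the 6 High MB pigs above the Low MB median and the largest positive log2 fold change of the synthesis genes, 0.18 with a standard error of 0.14, which came to -0.03 among deep libraries and to 0.38 among standard ones.

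FECH (ENSSSCG00000004541), the last enzyme, was the member with the smallest p-value and its direction was towards the Low MB group. It ran from 33.2 to 44.3 CPM (median 35.6) in the High MB pigs and from 27.6 to 66.6 CPM (median 43.3) in the Low MB pigs, a wide range that included both the lowest and the highest pig of the 12. Of the Low MB pigs, 2 were above every High MB pig, and 1 High MB pig was above the Low MB median. The log2 fold change of FECH was -0.29 with a standard error of 0.17 (unadjusted p = 0.113 and adjusted p = 0.649 from edgeR), and by exact two-sided permutation test p = 0.236. Among deep libraries it was -0.37 and among standard ones -0.08, and it was -0.38 with an unadjusted p-value of 0.0200 from edgeR when Low MB pig 4, the lowest of its group, was left out. Without Low MB pig 1, the highest of its group, it was -0.15 (unadjusted p = 0.339 from edgeR).

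**Figure D2:**
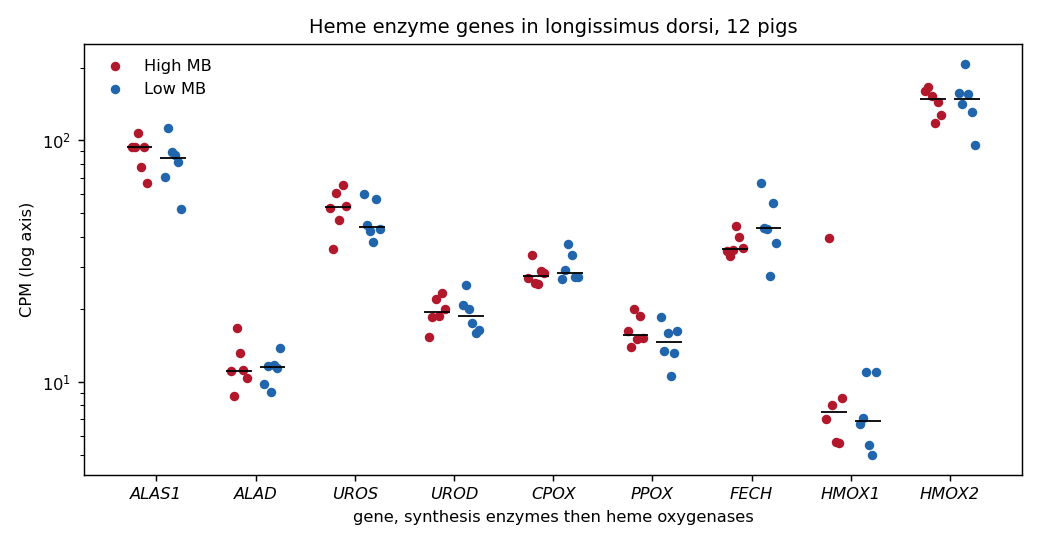
Level in CPM on a log axis of the 9 heme genes, with red points for the 6 High MB pigs, blue points for the 6 Low MB pigs and black lines for group medians. The groups overlap for each gene, and a single High MB pig at 39.6 CPM stands above all others for HMOX1.

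HMOX2 (ENSSSCG00000007942), the constitutive heme oxygenase, had from 118 to 167 CPM (median 148) in the High MB group and from 95.3 to 208 CPM (median 148) in the Low MB group. The medians were equal to 3 digits, and the Low MB pigs again held both ends of the range. The log2 fold change of HMOX2 was -0.03 with a standard error of 0.16, and -0.05 without High MB pig 2.

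HMOX1 (ENSSSCG00000039745), the inducible heme oxygenase, was counted 214 to 1908 times per pig. It had from 5.58 to 39.6 CPM (median 7.54) in the High MB group and from 4.98 to 11 CPM (median 6.91) in the Low MB group. A single library carried the difference in means. High MB pig 2 had 39.6 CPM, 3.60 times the next highest of the 12 pigs and 5.62 times the median of the other 11. The other 5 High MB pigs lay between 5.58 and 8.58 CPM, at 6.98 ± 1.36 CPM (SD, n = 5), inside the Low MB range of 4.98 to 11 CPM. With all 12 pigs the exact permutation test gave p = 0.649. In the deep libraries, which do not include High MB pig 2, the log2 fold change of HMOX1 was -0.04 and in the standard ones it was 0.94, with an unadjusted p-value from edgeR of at least 0.0920 in every alternative. The coefficient of variation of HMOX1 over the 12 pigs was 94.6%, against 19.1% for HMOX2 and between 12.4% and 25.4% for the synthesis genes. This value for HMOX1 rested on High MB pig 2. The SD of HMOX1 was 13.4 CPM in the 6 High MB pigs, 1.36 CPM in the 5 without that pig and 2.65 CPM in the 6 Low MB pigs.

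The same pig was also highest for several other genes, and TANGO2, SRXN1 and TXNRD1 are named with their values already known. TANGO2, linked to heme trafficking in mitochondria, had 26.7 CPM in High MB pig 2 and 10.3 to 15.9 CPM in the other 11. Of the 10 genes of porphyrin and heme transport to which it belongs, 3 were highest and 2 lowest in this pig, and their summed level was 183 CPM there against at most 195 CPM in the others. The NRF2 targets sulfiredoxin (SRXN1) and thioredoxin reductase (TXNRD1) had 48.9 CPM against 4.48 to 20.5 CPM, and 103 CPM against 37.3 to 76.4 CPM. Among the 6 NRF2 targets tested besides HMOX1, 5 were highest in this pig, against 20.1% of all genes. Of the 12 macrophage markers 9 were highest there, and their summed level was 172 CPM against at most 119 CPM in the other 11 pigs. CD163, the macrophage receptor for haemoglobin bound to haptoglobin, had 27.8 CPM there against 2.56 to 10.2 CPM. The part of macrophages and of lower fibre RNA in the HMOX1 level of this pig was not tested. Among the members, High MB pig 2 had the lowest ALAD and UROS of the 12 pigs and the second lowest FECH.

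**Figure D3:**
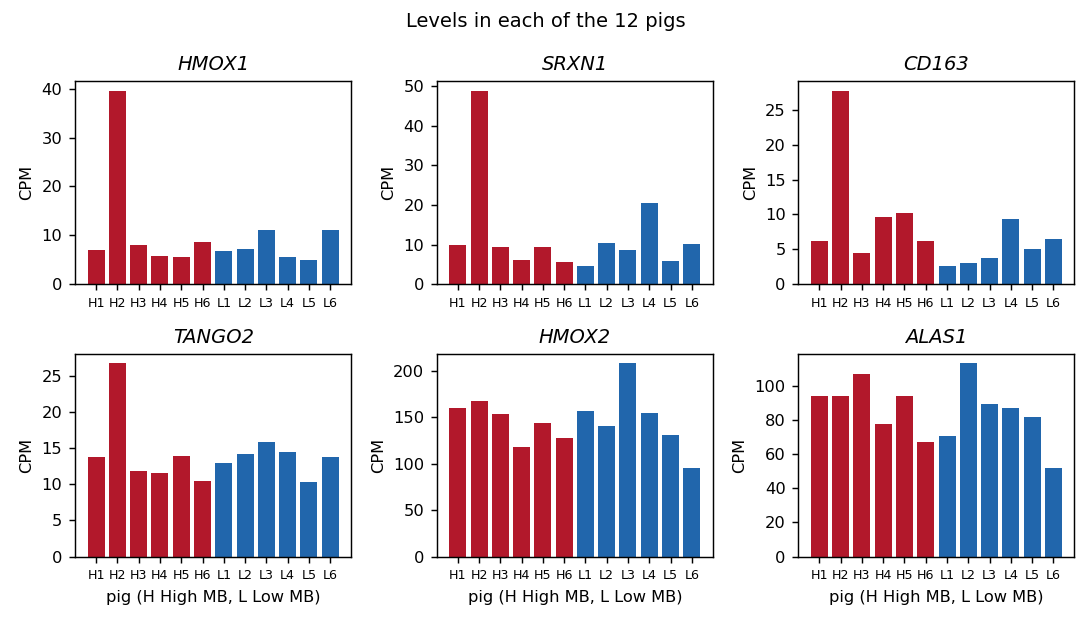
Level in CPM of HMOX1, SRXN1, CD163, TANGO2, HMOX2 and ALAS1 in each pig, with red bars for High MB pigs 1 to 6 and blue bars for Low MB pigs 1 to 6, every axis starting at 0. High MB pig 2 is the highest bar for HMOX1, SRXN1, CD163 and TANGO2 and not for HMOX2 or ALAS1.

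To set the genes beside each other, CPM were divided by the kilobases of exon in RefSeq, a scale that depends on which exons are annotated. ALAS1 had the highest level of the members per length, 43.3 ± 8.64 CPM per kilobase (SD, n = 12), and was above HMOX2 in 12 of 12 pigs. This rank rests on the exon lengths, 1977 bases for ALAS1 and 6938 for HMOX2, since in CPM per gene HMOX2 was the higher (146 ± 28.0 against 85.6 ± 17.1, SD, n = 12), and the exons behind the ALAS1 counts may differ from those RefSeq lists for it. HMOX2 (21.1 ± 4.04) and UROS (20.8 ± 4.03) followed at levels per length that did not differ beyond their spread. UROD (16.4 ± 2.56) and FECH (16.0 ± 4.07) came next and did not differ beyond their spread either, with UROD the higher in 7 of 12 pigs. CPOX had 10.9 ± 1.34 and ALAD 8.97 ± 1.71 CPM per kilobase, and CPOX was the higher in 9 of 12 pigs. HMOX1 (6.50 ± 6.15) and PPOX (4.79 ± 0.820) closed the order, and HMOX1 was the higher of these in 6 of 12 pigs. Without High MB pig 2, which had 25.6 CPM per kilobase of HMOX1, the level of HMOX1 was 4.76 ± 1.35 and that of PPOX 4.84 ± 0.845 CPM per kilobase (SD, n = 11), so their order turned, as did that of HMOX2 (20.8 ± 4.12) and UROS (21.3 ± 3.72). The erythroid isoenzyme ALAS2 had 0.781 ± 0.314 CPM per kilobase, and its highest pig (1.48) was far below the lowest pig for ALAS1 (26.3). The biliverdin reductases BLVRA and BLVRB, which turn biliverdin into bilirubin, had 7.22 ± 1.25 and 8.07 ± 1.88 CPM per kilobase (SD, n = 12).

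**Figure D4:**
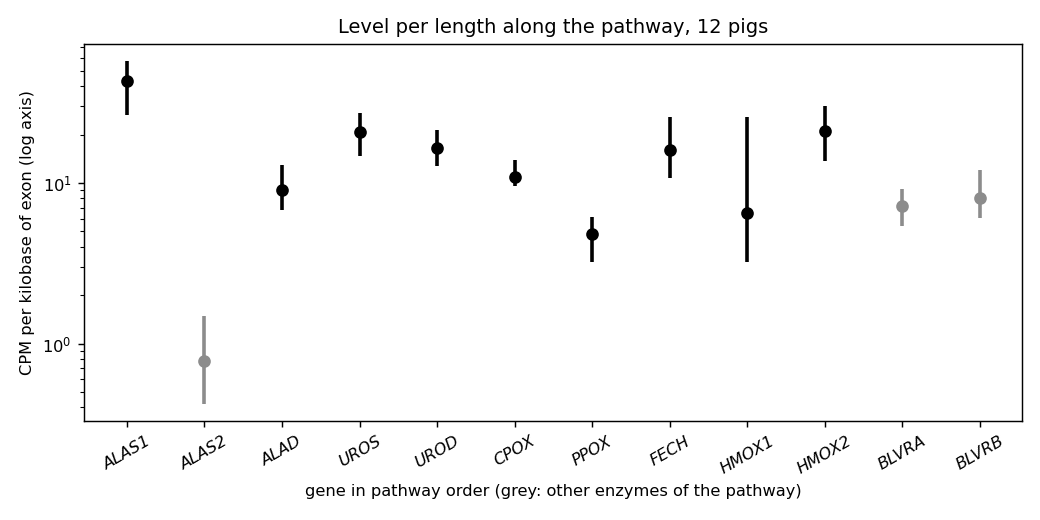
Level in CPM per kilobase of exon (log axis) of the heme genes in pathway order, with points for the mean of 12 pigs and lines from the lowest to the highest pig, the 9 members in black and other enzymes of the pathway in grey. ALAS1 has the highest mean of the members at 43.3 and ALAS2 the lowest level shown at 0.781.

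The members other than HMOX1 varied less between pigs than the median gene. The biological coefficient of variation that edgeR fitted was 54.0% for HMOX1, with High MB pig 2 included, higher than for 93% of the genes tested by its rank. It was between 15.4% (CPOX) and 22.2% (FECH) for the other 8, all under the median of 23.7% over all genes. These 8 stood at the percentiles 52.3 (ALAD) to 94.1 (HMOX2) of level among the genes tested, and genes of like level were not compared. Over the 36 pairs of members, the Pearson correlation of log2 CPM across the 12 pigs ran from -0.66 (UROS with CPOX) to 0.67 (UROS with PPOX), and 0 pairs passed a permutation test with 100000 resamples after Benjamini-Hochberg adjustment (smallest adjusted p = 0.192 for Pearson and 0.481 for Spearman). For UROS with PPOX, Spearman's rho was 0.61 (permutation test, p = 0.0400), Pearson's r was 0.86 within the High MB and 0.51 within the Low MB group, and r without the 2 pigs farthest from the median of UROS was 0.64. For UROS with CPOX, rho was -0.61 (permutation test, p = 0.0401), r was -0.60 within the High MB and -0.70 within the Low MB group, and r without the 2 farthest pigs was -0.68.

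For each member, the gene with the most similar pattern over the 12 pigs was sought among 11353 other tested genes with a symbol, by Pearson's r of log2 CPM. Since the nearest of so many genes is always close, these values are a description only. ALAS1 was nearest to FABP3, the heart-type fatty acid binding protein of oxidative muscle (r = 0.92, rho = 0.94), and r fell to 0.81 without the 2 pigs farthest from the ALAS1 median. FECH was nearest to WLS, which carries Wnt proteins to the cell surface (r = 0.93, and 0.94 without such pigs), and UROS to TLE5, a transcriptional corepressor (r = 0.93). HMOX1 was nearest to LOXL4, a lysyl oxidase of the matrix, with r = 0.97, rho = 0.88 and r = 0.81 without the 2 farthest pigs. HMOX2 was nearest to TWF2, an actin-binding protein (r = 0.92), UROD to TRMU (r = 0.89), CPOX to WIPF3 (r = 0.92), PPOX to LSMEM2 (r = 0.91) and ALAD to MMP15 (r = 0.86).

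Because the myoglobin content of the groups did not overlap, the relation of each member to it was computed within the 6 pigs of each group. Of the 18 relations, 1 had an unadjusted exact p-value under 0.05, and none passed the Benjamini-Hochberg adjustment over the 18 (smallest adjusted p = 0.6 by exact permutation). It was HMOX2 in the Low MB group, with r = 0.82 (exact permutation test, p = 0.0333), rho = 0.77 (exact permutation test, p = 0.103) and r = 0.94 without the 2 pigs farthest from the median content. In the High MB group the r of HMOX2 was -0.11, and -0.67 without such pigs. The next smallest p-values were those of ALAD in the Low MB group, with r = -0.72 (exact permutation test, p = 0.0903), rho = -0.54 (exact permutation test, p = 0.297) and r = -0.63 without the 2 farthest pigs, and of CPOX in the same group, with r = 0.73 (exact permutation test, p = 0.122), rho = 0.43 (exact permutation test, p = 0.419) and r = 0.68 without them. FECH in the High MB group had r = 0.68 (exact permutation test, p = 0.144) and rho = 0.49 (exact permutation test, p = 0.356), with r = 0.87 without the 2 farthest pigs. ALAS1 had r = 0.34 in the High MB and 0.17 in the Low MB group, with exact permutation p-values of 0.494 and 0.767, and these became -0.56 and 0.83 without the 2 farthest pigs of each group, so neither was stable.

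Other genes of heme handling were taken from lists of synthesis partners, transporters and chaperones, heme a and heme c enzymes, breakdown partners, haemoglobin scavenging, regulators of HMOX1 and ALAS1, NRF2 targets and heme proteins. Of their 62 genes 52 had a row under their symbol and 50 were tested. Neither edgeR nor DESeq2 called any of them. At an unadjusted p-value under 0.05 in edgeR 3 were higher in the High MB group and 0 lower, which is 6% of the 50 against 8.46% of all genes. These were ALAS2, HBB and CD163. Without High MB pig 2 the count was 2 higher (ALAS2 and HBB) and 4 lower, against 5.8% and 4.53% of all genes in that fit. The 4, named with their values known, were the heme exporter FLVCR1 (-0.51), the heme a enzyme COX15 (-0.27) and the small Maf factors MAFF (-0.82) and MAFG (-0.31), partners of BACH1 and NRF2, with adjusted p-values from edgeR between 0.466 and 0.477. The 10 genes of porphyrin and heme transport had a median log2 fold change of 0.00 with 5 above 0 (0.02 without High MB pig 2), and the 3 enzymes of heme a and heme c (COX10, COX15 and HCCS) a median of -0.04 (-0.02 without that pig). The 7 other genes of synthesis had a median of 0.05, which was -0.05 without High MB pig 2, and the 2 of scavenging 0.84. BLVRA, BLVRB and POR, the reductase that passes electrons to the heme oxygenases, had a median of 0.14, or 0.24 without High MB pig 2. For the 11 regulators tested, among them BACH1, the heme-sensing repressor of HMOX1, and PPARGC1A, which induces ALAS1, the median was -0.18 with 1 above 0, and 0 of them had an unadjusted p-value under 0.05 in edgeR with all 12 pigs. The 6 NRF2 targets tested had a median of 0.01, or -0.16 without High MB pig 2, and the 8 heme proteins tested a median of 0.02, or 0.12 without it.

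Of the 5 red cell markers tested, ALAS2 and HBB had an unadjusted p-value under 0.05 in edgeR, both higher in the High MB group, against 5.33% of all genes in this direction. The other 3 had log2 fold changes of -0.02 (EPB42), -0.18 (SPTB) and -0.25 (ANK1), and the median of the 5 was -0.02. Without High MB pig 2 the median of the 5 was 0.11, with 3 above 0. ALAS2 (ENSSSCG00000012347) had from 1.40 to 2.98 CPM (median 1.71) in the High MB pigs and from 0.849 to 1.66 CPM (median 1.16) in the Low MB pigs, from 33 to 237 counts per pig. All 6 High MB pigs lay above the Low MB median, and 3 lay above every Low MB pig. The log2 fold change of ALAS2 was 0.71 with a standard error of 0.26 (unadjusted p = 0.0170 and adjusted p = 0.563 from edgeR), and by exact permutation test p = 0.0216. HBB (ENSSSCG00000014725), the beta chain of haemoglobin, had from 65.0 to 143 CPM (median 83.3) in the High MB pigs and from 37.5 to 82.8 CPM (median 58.1) in the Low MB pigs. Its log2 fold change was 0.79 with a standard error of 0.23 (unadjusted p = 0.00461 and adjusted p = 0.563 from edgeR), 0.71 among deep libraries and 1.02 among standard ones, and by exact permutation test p = 0.0173. High MB pigs 5 and 6 were highest for both genes, and without pig 5 the log2 fold changes were 0.55 for ALAS2 (unadjusted p = 0.0532 from edgeR) and 0.64 for HBB. Among deep libraries ALAS2 had 0.49 (unadjusted p = 0.237 from edgeR) and among standard ones 1.07. After adjustment neither gene passed. Of the 12 red cell markers, 10 had a row and 5 were tested, and SPTB and ANK1 are also expressed in muscle. The summed level of the 5 was 429 to 574 CPM in the High MB and 459 to 623 CPM in the Low MB group, most of it from SPTB and ANK1. Among those under the filter on low counts, KLF1, the erythroid master regulator, was at 0 in every library, RHAG had at most 3 counts in any, SLC4A1 at most 8 and AHSP, a chaperone of globin chains, at most 48. The part of blood left in the muscle was not tested.

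Macrophage markers were read beside HMOX1, which these cells express. All 12 markers had a log2 fold change above 0 (median 0.86), and 9 of the 12 had an unadjusted p-value under 0.05 in edgeR, against 5.33% of all genes in this direction. None of them passed adjustment (smallest adjusted p = 0.563 from edgeR). Their summed level ran from 72.8 to 172 CPM in the High MB and from 36.1 to 83.3 CPM in the Low MB group. Without High MB pig 2, 12 of the 12 were still above 0 but 5 had an unadjusted p-value under 0.05 in edgeR, and the median was 0.55. In that fit 5.8% of all genes were higher at such a p-value. In the deep libraries alone 10 of the 12 were above 0 and 1 had such a p-value, with a median of 0.73, and in the standard ones 12 and 5, with a median of 0.83. Over all genes, 314 of 14465 were higher at such a p-value in the deep libraries and 658 of 13546 in the standard ones. CD163 had a log2 fold change of 1.09 (unadjusted p = 0.0242 and adjusted p = 0.563 from edgeR), which was 0.55 (unadjusted p = 0.117) without that pig. The 5 High MB pigs other than pig 2 had summed levels from 72.8 to 119 CPM, and 2 of them lay above every Low MB pig, while their HMOX1 lay inside the Low MB range. Of the other cell types, 2 of 7 adipocyte markers (median 0.85), 0 of 6 endothelial markers (median 0.26) and 1 of 7 muscle fibre markers, TNNI1 of slow fibres, were higher at an unadjusted p-value under 0.05 in edgeR. The muscle fibre markers had a median of -0.10, with 5 of the 7 lower in the High MB group. Without High MB pig 2 their median was 0.05, with 5 of the 7 above 0. By depth class, the adipocyte count was 0 of 7 in the deep libraries (median 0.61) and 5 of 7 in the standard ones (median 1.38), the endothelial count 0 and 2 of 6, and the muscle fibre count 0 and 1 of 7. These stand beside the counts over all genes given above for each depth class. The endothelial count was 1 of 6 without High MB pig 2. The part of these cells in the levels of the heme genes was not tested.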

How the data were processed

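RNA of longissimus dorsi from 12 pigs was sequenced as paired reads of 150 bases, after a kit whose strand handling in counting is not given in the sources used here. The authors deposited raw gene counts without normalization, made with TrimGalore, hisat2 (build Sscrofa11.1) and htseq-count. The deposited counts per transcript were not used, because no table here links transcript IDs to genes. Between 47.0% and 48.2% of uniquely aligned reads were assigned to a gene, and the summary lines were left out of library sizes and tests.

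Symbols came from a table of Ensembl IDs. Genes were tested with edgeR 4.0.16 in R 4.3.3 (TMM, filterByExpr, quasi-likelihood test, Benjamini-Hochberg over the 13373 genes tested, no covariate). DESeq2, the package the study used, was an alternative, here in version 1.42.0. Standard errors come from the test statistic, and 95% intervals from the moderated t distribution. Log2 CPM used a prior count of 2. Exact permutation tests ran over the 924 regroupings of 12 pigs or the 720 pairings of 6. The fits were tested on simulated data first. There edgeR called 31.3% of the genes changed 1.5-fold, 67.2% of those changed 2-fold and 89.4% of those changed 4-fold. DESeq2 called 40.3%, 76.1% and 93.9% of them.

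The text names the 9 members, genes of the pathway lists called or with an unadjusted p-value under 0.05, the globins, and the gene nearest to each member. Other list members (TANGO2, SRXN1, TXNRD1, BACH1, PPARGC1A, COX10, COX15, HCCS, BLVRA, BLVRB, POR and the markers) are named outside this rule, with values known, to describe a list or High MB pig 2. MB and HBA1 had no row under their symbol and were not analysed here, and some genes of the lists are counted but not reported here. The members and lists were chosen with earlier results of these data known. The p-values test group differences or correlations against the spread between pigs. Alternatives were other size factors, filters, thresholds, DESeq2, robust estimation, removal of the 10 highest genes, the depth class as covariate, each depth class alone, the individual number as a block, and each pig left out.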

Additional observations from a re-analysis of the deposited data

Results flagged for a closer look

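Within each group of 6 pigs, the gap between an extreme pig and its neighbour was compared with the whole range for the 9 members, 18 tests in all, of which chance flags about 1 in 20. HMOX1 in the High MB group was the 1 that stood out: High MB pig 2 had 39.6 CPM and the next pig 8.58 CPM, a gap of 0.912 of the range against a limit of 0.625 for 6 samples. This pig was also the highest of the 12 for 9 of 12 macrophage markers and the lowest for 5 of 7 muscle fibre markers, and the part of these in its HMOX1 level was not tested.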

How the results depend on the processing

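Under 23 alternatives, 0 of 207 recomputed log2 fold changes of the members were called, the smallest unadjusted p-value was 0.0200 (FECH without Low MB pig 4) and 191 kept their sign. The 16 that changed sign were at most 0.12 in size and belonged to 7 genes. In the deep libraries alone CPOX was 0.03, HMOX1 -0.035, PPOX -0.033 and UROS -0.052, in the standard libraries alone UROD was -0.072, and with upper quartile size factors HMOX2 was 0.026. With each pig left out in turn, ALAS1 ran from 0.007 to 0.233, UROS from 0.065 to 0.251, PPOX from 0.115 to 0.255, CPOX from -0.134 to -0.02 and FECH from -0.381 to -0.15, and ALAD ran from -0.046 to 0.169, HMOX1 from -0.119 to 0.839, HMOX2 from -0.129 to 0.105 and UROD from -0.028 to 0.131. HMOX1 was below 0 in this series without High MB pig 2. Over all genes, edgeR called 0 (1132 at an unadjusted p-value under 0.05). DESeq2 called 29 and edgeR in the deep libraries alone called 1, none of them a member, and every other alternative called 0. The cause was not tested. At an unadjusted p-value under 0.05, 63% of genes were higher in the High MB group, but 82% were with upper quartile size factors, 70% without the 10 highest genes and 76.3% in the standard libraries alone, and with each pig left out the share ran from 56.1% (without High MB pig 2) to 70.4% (without Low MB pig 4). The number of macrophage markers higher at an unadjusted p-value under 0.05 fell from 9 to 5 without High MB pig 2, and the pathway genes went from 3 higher and 0 lower to 2 and 4, alternatives chosen after seeing the data. The share of all genes higher at such a p-value went from 5.33% to 5.8%, and the share lower from 3.13% to 4.53%. Pigs of the same individual number were not taken as pairs. Their deviations from the group means correlated from -0.21 to 0.14, and 0 of 6 High MB pigs correlated best with their own number. Such a check cannot exclude that same-numbered pigs shared some condition. With the individual number as replicate block 0 genes and 0 members were called, and 957 genes had an unadjusted p-value under 0.05, while the log2 fold change of HMOX1 was 0.28. The planned comparison by transcript was not run, as no table here links transcripts to genes. With each pig left out in turn, 0 members were called and 0 of all genes tested, so these fits could not show a difference in calls for the members. The lowest count of any member in any pig was 214 (HMOX1).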
